A study of Mus musculus with 3 samples.

Results

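The heat-shock chaperones described here are 10 of the 32285 mouse genes counted in the study: Hspa1a, Hspa1b, Dnajb1, Hsph1, Dnaja1, Hsp90aa1, Hspa8, Hsp90ab1, Hspe1 and Hspd1. They were chosen by name as the main cytosolic and mitochondrial members of the heat-shock response, and not by a limit on their levels. All 10 were matched to 1 row each of the gene tables, and the unique molecular identifiers (UMIs, one per captured transcript) of each were summed over the cells of a lineage in a library. For the description they were split into 4 classes by their known behaviour: inducible cytosolic (Hspa1a, Hspa1b, Dnajb1, Hsph1), stress-raised cytosolic (Dnaja1, Hsp90aa1), constitutive cytosolic (Hspa8, Hsp90ab1) and mitochondrial (Hspe1, Hspd1).

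Single-cell RNA-seq was performed on recipient immune cells of mouse lungs after a syngeneic left lung transplant, in which a C57BL/6J lung carrying the CD45.2 allele of the leukocyte surface protein CD45 was placed in a congenic B6 recipient carrying CD45.1 (B6.SJL-Ptprca Pepcb/BoyJ in the methods, while the labels give C57BL/6J for every sample). There were 3 libraries, 1 per condition, each from the pooled lungs of 2 mice: a naive C57BL/6J left lung that had not been transplanted, a graft at 2 h of reperfusion, and a graft at 3 days of reperfusion. Both grafts had 60 min of cold ischemia at 4 °C and 45 min of warm ischemia at 28 °C before reperfusion, so that ischemia, surgery and reperfusion differ together from the naive lung. The same CD45.1 sort was given for the naive lung, although a lung that was never transplanted holds no recipient cells. All mice were 8 to 10 weeks old. Because no condition had a second library, no comparison below has a replicate check and no p-value was computed. Intervals are exact 95% intervals that cover counting error only.

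Heat-shock proteins bind unfolded or partly folded proteins and keep them from aggregating. In cells at rest the constitutive members carry most of this load, and heat-shock factor 1 is held inactive. Heat, ischemia, oxidants and tissue dissociation release that factor, which binds repeated GAA and TTC units in front of chaperone genes and switches on the inducible members within minutes to hours. Lung grafts meet several of these conditions in sequence, and cells taken from any tissue meet the last one before they are counted.

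Of the 2921, 10328 and 9016 cells in the naive, 2 h and 3 d libraries, 2422, 10283 and 8324 passed the filters, with a median of 7298.5, 878 and 5716.5 UMIs per cell. The 2 h library was therefore by far the shallowest per cell, and levels are given as UMIs per 1000000 UMIs of the lineage (CPM). Transcripts were tagged at 1 end, so CPM is not divided by gene length and levels of different genes were not ranked against each other. The libraries shared 8 cell barcodes between naive and 2 h, 1 between naive and 3 d and 23 between 2 h and 3 d, and values without those cells are among the alternatives in the closing section. The naive library was counted with Cell Ranger 7.1.0 and both grafts with 6.0.0, as the file headers state, so a comparison with naive crosses a software version and the comparison of 2 h with 3 d does not.

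Lineages were named from marker genes after a clustering in which the 10 members and the immediate-early genes were left out, so that the chaperones could not set the cells they were counted in. B-like cells numbered 555, 1661 and 1913 in the naive, 2 h and 3 d libraries. T-like cells numbered 577, 2472 and 1054, NK-like cells 516, 1052 and 329, and neutrophil-like cells 389, 4013 and 2188. Nonclassical monocyte-like cells, patrolling monocytes marked by Ace, Ear2 and Treml4, numbered 505 at 2 h and 489 at 3 d but only 4 in the naive library. The clusters that held a lineage differed between libraries: naive, 2 h and 3 d cells came from clusters 12, 3 and 2 for B-like, 11, 4 with 8, and 7 for T-like, 14, 6 and 18 for NK-like, and 17, 0 with 5, and 1 for neutrophil-like cells, and 2 h and 3 d nonclassical monocyte-like cells from clusters 13 and 15. The summed nonclassical monocyte markers were lower at 2 h (1196 CPM) than at 3 d (3722 CPM), with all 6 markers detected in both.

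The inducible class was higher at 2 h than in the naive lung in the neutrophil-like and the 3 lymphoid lineages (B-like, T-like and NK-like). In the lymphoid lineages it was lower again at 3 d than at 2 h. B-like cells held 156 CPM of the inducible class in the naive lung, 906 CPM at 2 h and 222 CPM at 3 d. T-like cells held 158, 663 and 202 CPM in the same order, and NK-like cells 173, 480 and 170 CPM. In each lymphoid lineage the 2 h library stood well above both others. The log2 ratio of 3 d to naive was 0.51 (0.37 to 0.64) in B-like cells, and how near these libraries lay depended on the setting. B-like cells with less than 5% of UMIs on mitochondrial genes held 133 CPM in the naive lung and 352 CPM at 3 d. Those with 1000 to 3000 UMIs held 110 CPM, from 9 UMIs, and 766 CPM. The log2 ratio of 2 h to naive was 2.53 (95% interval 2.39 to 2.68) in B-like cells, 2.07 (1.96 to 2.18) in T-like cells and 1.47 (1.31 to 1.63) in NK-like cells. Against 3 d, a library counted with the same software version, the log2 ratios were 2.03 (1.93 to 2.12), 1.72 (1.63 to 1.81) and 1.5 (1.30 to 1.70). The part of the version in the ratios to naive was not tested. In the B-like cells with 1000 to 3000 UMIs the ratio of 2 h to 3 d was -0.063, with 60 cells left at 3 d. With the members and immediate-early genes left in the clustering, 235 of the 1661 B-like cells at 2 h (14.1%) joined an unnamed cluster. It was led by Hspa1a and Hspa1b, with Sftpc, Jun and Atf3 also among its top genes. The 2 h to naive ratio of the cells still named B-like was 0.15.

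Neutrophil-like cells had the lowest inducible level of the main lineages, at 33.8 CPM in the naive lung, 91.5 CPM at 2 h and 73.6 CPM at 3 d. Their log2 ratio was 1.44 (1.07 to 1.82) for 2 h to naive and 0.31 (0.12 to 0.50) for 2 h to 3 d. Without called doublets the levels were 33.8, 78.2 and 48.9 CPM in the same order, so how near 3 d lay to 2 h depended on those cells. The ratio of 2 h to naive was 0.16 after each cell was thinned to equal depth, in a draw that held 13 inducible UMIs for the naive lung, whereas the draw used for the shares of cells below held 5. Nonclassical monocyte-like cells differed from the lymphoid lineages: their inducible level was 913 CPM at 2 h and still 831 CPM at 3 d, a log2 ratio of 0.14 (0.02 to 0.25). At 3 d, classical monocyte-like cells of the same library held 177 CPM, Arg1 macrophage-like cells 209 CPM and C1q macrophage-like cells 99.9 CPM. The nonclassical monocytes were thus the highest of the 9 named leukocyte lineages of at least 30 cells at 3 d, followed by B-like cells at 222 CPM. With the members and immediate-early genes left in the clustering, nonclassical monocyte-like cells held 123 CPM at 3 d, below the 211 CPM of T-like cells. Their summed neutrophil markers were at 6122 CPM at 2 h and 3606 CPM at 3 d, against 1196 and 3722 CPM of their own markers, and the part of these in the result was not tested. The sign of the 2 h to 3 d ratio was not stable in this lineage: it was -0.42 after thinning to equal depth and 1.02 when cells were called one by one from their marker UMIs.

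**Figure D1:**
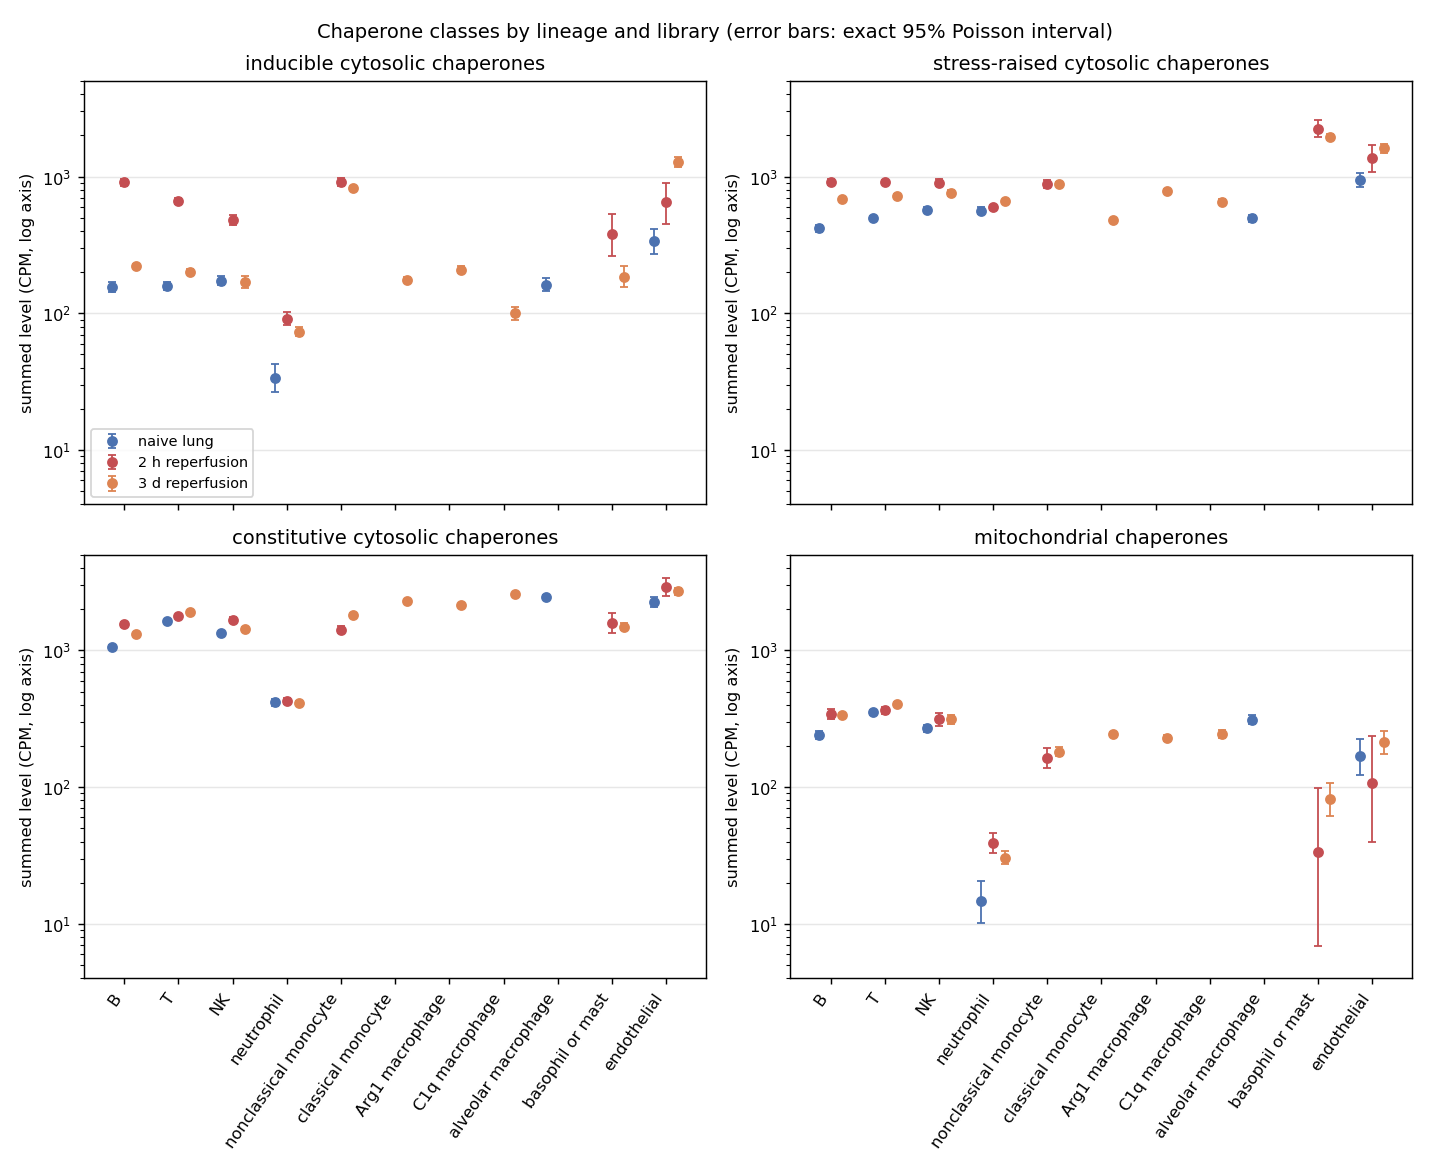
Summed level of each chaperone class (CPM, log axis) by lineage, 1 point per library with its exact 95% Poisson interval. The inducible class of B-like, T-like and NK-like cells is highest at 2 h (906, 663 and 480 CPM), while nonclassical monocyte-like cells stay at 913 and 831 CPM at 2 h and 3 d.

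Hspa1a and Hspa1b encode the major stress-inducible cytosolic Hsp70 proteins. They lie next to each other on the minus strand of mouse chromosome 17 (GRCm38), Hspa1a at chr17:34969190-34972156 and Hspa1b at chr17:34956436-34959238, and neither has an intron. Their coding sequences were 99.6% identical, with 8 mismatches over 1926 and 1929 bases. Their 3′ untranslated regions of 810 and 643 bases differed far more. These aligned with 414 identical bases, 164 mismatches and 297 gap positions, an identity of 71.6% only with the gaps left out. Reads from the coding part therefore cannot be given to either copy with certainty, and the sum of both is firmer than either. The 250 bases before the 2 starts were 98.8% identical, and both hold the same paired unit of the heat-shock element, printed here because both copies share it (RefSeq windows on GRCm38.p6, minus strand, 5′ to 3′, with the GAA and TTC units in capitals).
Hspa1a, chr17:34972243-34972270: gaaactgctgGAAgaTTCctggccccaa
Hspa1b, chr17:34959325-34959352: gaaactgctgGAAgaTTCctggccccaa
The letters GAANNTTC or TTCNNGAA, searched on both strands, occurred in 15.06% of 32851 windows of all genes, so the match alone describes these windows and marks no site.

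In B-like cells Hspa1a was at 28.7, 147 and 49.9 CPM in the naive, 2 h and 3 d libraries, and Hspa1b at 49.2, 291 and 69.3 CPM. Both copies were highest at 2 h, with log2 ratios to naive of 2.36 (2.01 to 2.71) for Hspa1a and 2.56 (2.31 to 2.83) for Hspa1b. T-like cells had 24, 111 and 45.1 CPM of Hspa1a and 46.8, 211 and 48.7 CPM of Hspa1b. The T-like ratios of 2 h to naive were 2.21 (1.92 to 2.51) and 2.17 (1.97 to 2.38), and in these neither copy stood apart from the other. In NK-like cells Hspa1a was at 24.3, 54.2 and 6.99 CPM, the last from 14 UMIs, and Hspa1b at 52.0, 134 and 67.9 CPM. At 3 d in NK-like cells Hspa1b thus made up 90.7% of the summed UMIs of both copies, against 68.1% in the naive lung and 71.2% at 2 h. The Hspa1b share moved the other way at 3 d in T-like cells (66.1%, 65.5% and 51.9%) and B-like cells (63.1%, 66.4% and 58.1%).

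Nonclassical monocyte-like cells carried the highest Hspa1a and Hspa1b levels among the named leukocyte lineages with at least 30 cells in the same library. Hspa1a was at 299 CPM at 2 h and 341 CPM at 3 d, a log2 ratio of -0.19 (-0.39 to 0.01). Hspa1b was at 489 and 377 CPM, a log2 ratio of 0.37 (0.21 to 0.53). Both copies were thus nearly as high at 3 d as at 2 h. Neutrophil-like cells had few UMIs of either copy: Hspa1a gave 6, 36 and 250 UMIs (2.67, 10.3 and 23.7 CPM) and Hspa1b 9, 62 and 180 UMIs (4.00, 17.8 and 17 CPM). Hspa1a was the only inducible member of neutrophil-like cells that was lower at 2 h than at 3 d, with a log2 ratio of -1.2 (-1.74 to -0.69), and that direction changed under 3 alternatives given in the closing section. Basophil or mast-like cells had 0 UMIs of both copies in the naive library and at 2 h, which allows up to 18.9 and 33.7 CPM, against 4.39 and 20.5 CPM of Hspa1a and Hspa1b at 3 d.

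Dnajb1 encodes the J-domain partner that feeds clients to inducible Hsp70 and lies on chromosome 8 at 83608193 to 83612653 on the plus strand. It had the largest ratio of 2 h to naive of all 10 members in the B-like, T-like and NK-like lineages. B-like cells had 33 CPM in the naive lung, 409 CPM at 2 h and 55.4 CPM at 3 d. The T-like values were 43.4, 284 and 61.2 CPM, and the NK-like values 42.8, 259 and 53.9 CPM. The log2 ratios to naive were 3.63 (3.34 to 3.93), 2.71 (2.51 to 2.92) and 2.6 (2.32 to 2.87). In each of these lineages 2 h stood far above both other libraries. The B-like log2 ratio of 3 d to naive was 0.75 (0.46 to 1.05). Neutrophil-like cells had 25.8, 59.4 and 29.3 CPM, log2 ratios of 1.2 (0.78 to 1.65) to naive and 1.02 (0.76 to 1.28) to 3 d, so Dnajb1 was the only inducible member of neutrophils past 2-fold at 2 h against both other libraries. In nonclassical monocyte-like cells Dnajb1 was at 99.2 CPM at 2 h and 66.5 CPM at 3 d, below its 2 h levels in the lymphoid lineages. No paired GAA and TTC unit was found in the Dnajb1 windows, which says only that these letters are not in those bases.

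Hsph1 encodes a nucleotide-exchange factor for Hsp70 and did not follow the other inducible members in the summed lineages. B-like cells had 45.5, 58.2 and 47.8 CPM of it and T-like cells 43.7, 57.2 and 46.6 CPM. The log2 ratio of 2 h to naive was 0.35 (-0.04 to 0.74) in B-like cells and 0.39 (0.10 to 0.67) in T-like cells, and in NK-like cells it was -0.75 (-1.31 to -0.23). Hsph1 of nonclassical monocyte-like cells was lower at 2 h (26.3 CPM) than at 3 d (46.4 CPM), a log2 ratio of -0.82 (-1.53 to -0.18). With all genes in the clustering, Hsph1 was among the top genes of a T cell cluster of 355 cells led by Hspa1a and Hspa1b. Hsph1 has 14824 intronic bases, the most of the 10 members, whereas Hspa1a and Hspa1b have none and Dnajb1 has 1257. No source used here says if intronic reads entered the counts, and their part in the difference among these genes was not tested.

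Dnaja1 and Hsp90aa1, the stress-raised cytosolic pair, went different ways. Dnaja1, another J-domain partner of Hsp70, lies on chromosome 4 at 40722150 to 40737149. A paired unit lies in 1 of its windows, within annotated exons of Dnaja1 and Gm6297, and none in its other windows. It is printed for comparison with the Hsp70 pair (plus strand, same marks).
Dnaja1, chr4:40722334-40722361: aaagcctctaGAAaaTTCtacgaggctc
In B-like cells Dnaja1 was at 115, 605 and 190 CPM, and in T-like cells at 261, 645 and 326 CPM. NK-like cells had 301, 685 and 369 CPM, so that all 3 lymphoid lineages were highest at 2 h. The log2 ratios of 2 h to naive were 2.40 (2.23 to 2.57), 1.31 (1.21 to 1.40) and 1.19 (1.06 to 1.32). Dnaja1 was also the 1 member of nonclassical monocyte-like cells at least 2-fold higher at 2 h (584 CPM) than at 3 d (251 CPM). Its log2 ratio there was 1.22 (1.06 to 1.38). In neutrophil-like cells it was nearly level, at 456, 495 and 497 CPM.

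Hsp90aa1, the stress-raised cytosolic Hsp90, was lower at 2 h than at 3 d in each of the 5 main leukocyte lineages. The naive, 2 h and 3 d libraries gave 303, 309 and 491 CPM for B-like and 236, 266 and 401 CPM for T-like cells. Nonclassical monocyte-like cells had 299 CPM at 2 h and 625 CPM at 3 d. The log2 ratio of 2 h to 3 d was -0.67 (-0.81 to -0.53) in B-like, -0.59 (-0.70 to -0.48) in T-like, -0.82 (-1.04 to -0.61) in NK-like, -0.67 (-0.84 to -0.51) in neutrophil-like and -1.06 (-1.26 to -0.88) in nonclassical monocyte-like cells. Against naive, the 3 d level was higher by 0.50 to 0.77 on the log2 scale in the neutrophil-like and the 3 lymphoid lineages, in contrast to Hspa1b and Dnajb1, which were highest at 2 h in the lymphoid lineages.

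Hspa8 and Hsp90ab1, the constitutive Hsp70 and Hsp90 of the cytosol, varied much less, with the exception of Hspa8 in B-like cells. There Hspa8 was at 321, 661 and 405 CPM, a log2 ratio of 1.04 (0.92 to 1.17) for 2 h to naive. In T-like cells it was at 757, 844 and 854 CPM and in neutrophil-like cells at 278, 278 and 219 CPM, with no rise at 2 h of the size seen in B-like cells. Hsp90ab1 lay between 738 and 1065 CPM in all 3 libraries of the lymphoid lineages, for instance at 738, 893 and 909 CPM in B-like cells. Nonclassical monocyte-like cells had less Hsp90ab1 at 2 h (619 CPM) than at 3 d (963 CPM), a log2 ratio of -0.64 (-0.77 to -0.50).

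Hspd1 and Hspe1, the mitochondrial chaperonin and its lid, lie head to head on chromosome 1 (Hspd1 at 55077835 to 55088243 on the minus strand, Hspe1 at 55088132 to 55091307 on the plus strand) and overlap at their starts. The Hspe1 window holds a run of alternating units (plus strand, GAA and TTC in capitals), within an exon of Hspd1. It is shown because few windows hold a run of 3 units, GAANNTTCNNGAA or TTCNNGAANNTTC on either strand. Such a run was found in 0.603% of windows (198 of 32851), each of which also holds the paired unit. The windows of Hsph1, which did not follow the other inducible members, each hold 1 such run and 3 paired units.
Hspe1, chr1:55088054-55088081: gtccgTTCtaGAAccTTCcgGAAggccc
The pair did not follow the inducible class in lymphoid cells. In B-like cells Hspe1 was at 181, 244 and 218 CPM and Hspd1 at 60.9, 97.2 and 118 CPM. T-like cells gave 289, 236 and 293 CPM of Hspe1 and 64.3, 129 and 110 CPM of Hspd1. Hspd1 was thus above naive in both grafts, and its 2 h and 3 d levels lay close to each other. In neutrophil-like cells both were scarce (18, 72 and 155 UMIs of Hspe1, and 15, 64 and 167 of Hspd1), with log2 ratios of 2 h to naive of 1.37 (0.61 to 2.20) and 1.46 (0.63 to 2.38). Pseudogenes named after Hspe1 (6) and Hspd1 (5) are annotated, and reads shared with them could have been dropped or split.

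**Figure D2:**
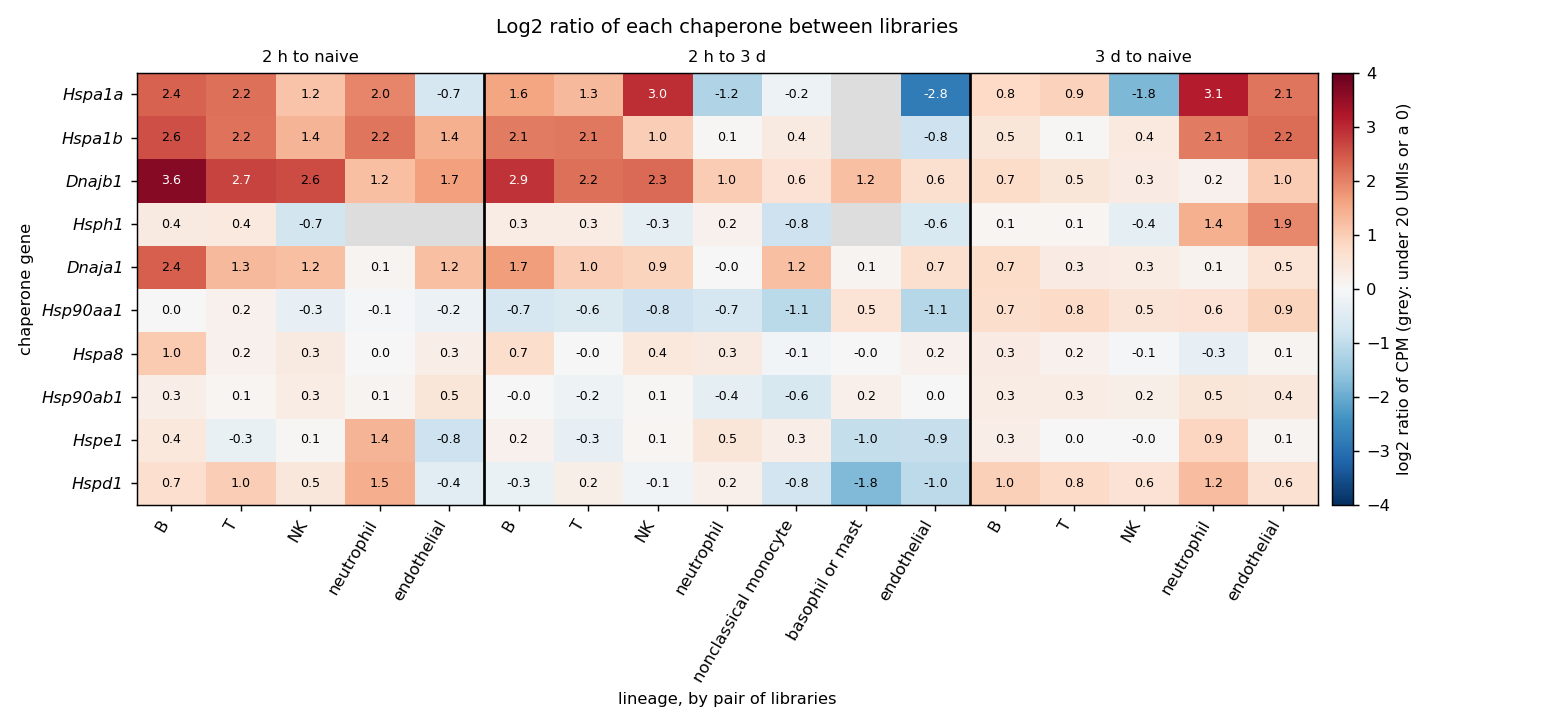
Heat map of the log2 ratio of CPM of each of the 10 chaperones (rows) by lineage and pair of libraries (columns), with the value in each box and grey where the gene had under 20 UMIs or a 0. Dnajb1, Hspa1a and Hspa1b are dark red for 2 h to naive in B-like cells (3.63, 2.36 and 2.56), while Hsp90aa1 is blue for 2 h to 3 d in all lineages drawn but basophil or mast-like cells (0.54).

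Genes averaging at least 10 CPM over both libraries, with at least 20 UMIs, give the background for the members' counts. In B-like cells 5 of 10 members were at least 2-fold higher at 2 h than in the naive lung (Hspa1a, Hspa1b, Dnajb1, Dnaja1 and Hspa8), where 8.55% of all genes were. In T-like cells 4 of 10 were, against 7.22% of all genes, and in NK-like cells 4 of 10 against 8.39%, in both the same genes without Hspa8. Of the 8 members that passed the level filter in neutrophil-like cells, 4 were past 2-fold (Hspa1b, Dnajb1, Hspe1 and Hspd1), against 9.29% of all genes. Hspa1b, Hspe1 and Hspd1 were under 10 CPM in the naive lung and passed only through their 2 h level. This count thus favours members high at 2 h. The median log2 ratio of the members was 0.86 in B-like, 0.69 in T-like, 0.41 in NK-like and 0.66 in neutrophil-like cells, where the median over all genes was -0.37, -0.33, -0.29 and -0.25. The typical gene was thus lower at 2 h than in the naive lung on this scale. The libraries differ in software version and depth, and the part of either in this offset was not tested. Between 2 h and 3 d, counted with the same version, the median over all genes was -0.25 in B-like, -0.19 in T-like and -0.24 in NK-like cells.

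Between 3 d and naive, 0 of 10 members were at least 2-fold higher in B-like, T-like and NK-like cells, where 3.12%, 3.01% and 4.28% of all genes were. In neutrophil-like cells 3 of 9 members that passed the filter were (Hspa1a, Hspa1b and Hspd1), against 7.25% of all genes. All 3 were under 10 CPM in the naive lung and passed only through their 3 d level. Between 2 h and 3 d, 4 of 10 members were higher at 2 h in B-like cells (background 6.48%), 3 of 10 in T-like cells (6.41%) and 2 of 10 in NK-like cells (Hspa1a and Dnajb1, 6.41%). Neutrophil-like cells had 1 of 9 (Dnajb1, 6.87%) and nonclassical monocyte-like cells 1 of 10 (Dnaja1, 7.89%), shares near those of all genes. In the lymphoid lineages Dnajb1 and Hspa1a were members of each of these sets. In NK-like cells, however, Hspa1a was under 10 CPM at 3 d and passed the filter only through its 2 h level.

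The inducible share of all member UMIs, which does not depend on the counts of other genes, followed the same order. It was 8.34% in the naive lung, 24.4% at 2 h and 8.71% at 3 d in B-like cells. T-like cells had 5.99%, 17.9% and 6.20%, NK-like cells 7.38%, 14.3% and 6.36% and neutrophil-like cells 3.29%, 7.93% and 6.25%. Nonclassical monocyte-like cells had 27.0% at 2 h and 22.4% at 3 d, well above the 5.49% of classical monocyte-like and 2.79% of C1q macrophage-like cells at 3 d. With the members and immediate-early genes left in the clustering, some nonclassical cells joined the cluster led by Hspa1a and Hspa1b. They were 61 of the 505 at 2 h (12.1%) and 35 of the 489 at 3 d (7.16%). The inducible share of the nonclassical cells still named was 9.01% at 2 h.

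T-like cells at 2 h fell into a pair of clusters with different inducible levels, although none of the members was used to form them. Chaperone genes outside the members and the immediate-early list had not been left out. The cluster led by Tcf7, Il7r and Lef1, genes of resting and central T cells, held 1475 cells and 480 CPM of the inducible class. The cluster led by Tnfrsf4 and Ctla4, genes of activated and regulatory T cells, held 993 cells and 965 CPM. Igfbp4 was among the top genes of both clusters, and Lat, Trbc2, Cd3g and Cd3d were also among those of the second. Both were named only as T cells, and no T cell state was assigned to either. Neutrophil-like cells at 2 h also fell into a pair of clusters, with 99.5 CPM in 2903 cells and 71.7 CPM in the 1109 cells led by the granule genes Ngp, Camp and Ltf. Cells are not replicates, and these levels describe 1 library.

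To compare cells at equal depth, each cell was thinned to 500 UMIs, and cells with fewer were left out (469 of the kept cells, all at 2 h). At least 1 inducible UMI was then found in 4.86% of B-like cells of the naive lung (95% interval 3.23 to 7.0), 17.1% at 2 h (15.3 to 19.0) and 5.70% at 3 d (4.70 to 6.83). Without thinning the shares were 31.7%, 21.6% and 35.5%, in which the shallow 2 h library was the lowest. T-like cells had 5.37%, 16.9% and 7.02% after thinning and NK-like cells 5.62%, 12.7% and 6.99%. Neutrophil-like cells had 1.29%, 3.42% and 3.06%. The share that free RNA alone would give was not tested. Nonclassical monocyte-like cells had 14.2% at 2 h (11.2 to 17.5) and 10.6% at 3 d (8.04 to 13.7).

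The inducible UMIs were unevenly spread over the cells. At 2 h 109 of 1599 B-like cells (6.82%) had at least 3 of their 500 UMIs from the inducible class, and these held 74.4% of the class's UMIs. In the naive lung 0.541% and at 3 d 1.05% of B-like cells reached 3. Among T-like cells at 2 h 108 of 2458 (4.39%) did and held 53.7% of the UMIs. In nonclassical monocyte-like cells 26 of 501 (5.19%) at 2 h and 23 of 489 (4.70%) at 3 d held 72.3% and 85.8%, so the level of this lineage at 3 d lay in few cells. Only 5 of 3684 neutrophil-like cells (0.136%) reached 3 at 2 h. The limit of 3 UMIs is a range of a count and not a cell type: at 2 h 34 B-like cells had exactly 3 and 35 had 2.

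**Figure D3:**
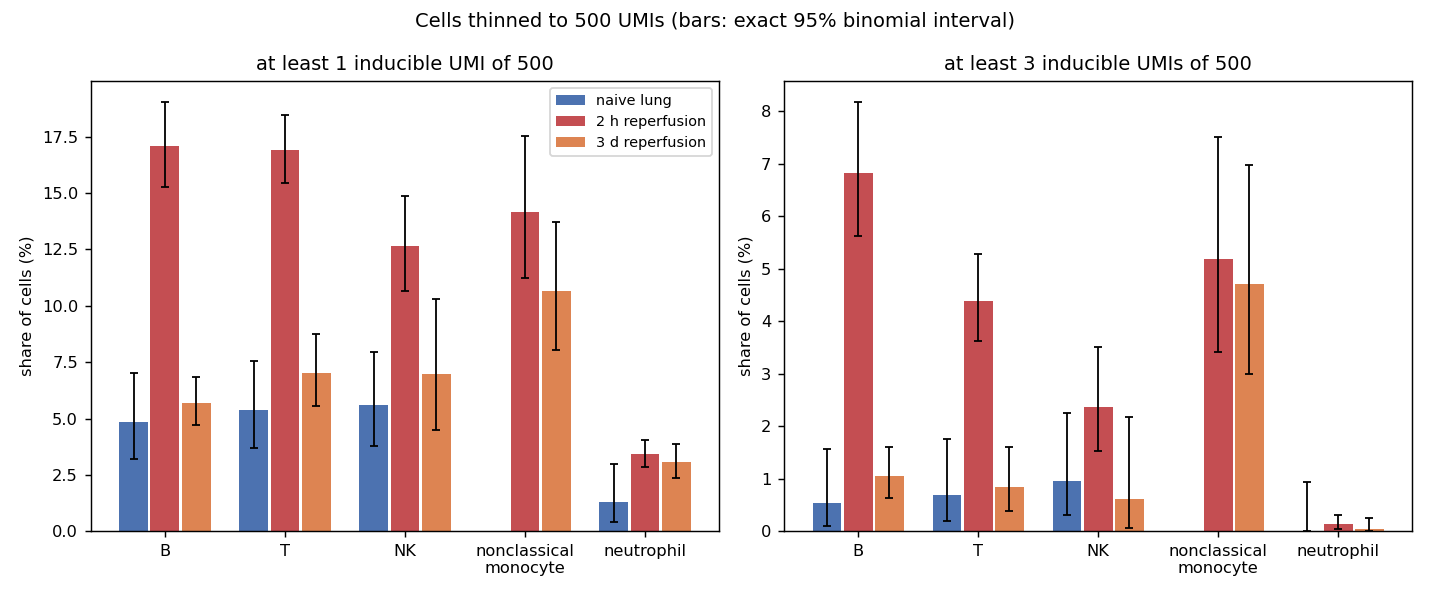
Percent of cells with at least 1 and at least 3 inducible UMIs among 500 drawn per cell, by lineage and library, with exact (Clopper-Pearson) 95% intervals. For at least 3 UMIs the 2 h library is highest in B-like (6.82%) and T-like cells (4.39%), and both grafts are near 5% in nonclassical monocyte-like cells (5.19% and 4.70%).

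Members outside the inducible class were also higher in the B-like cells with at least 3 inducible UMIs than in the 1326 B-like cells with 0 at 2 h. Dnaja1 was at 3364 against 318 CPM, Hspa8 at 2738 against 437 CPM, Hsp90aa1 at 1496 against 190 CPM and Hspe1 at 849 against 178 CPM. The whole cytosolic and mitochondrial set was thus high in the same cells, including Hsp90aa1, whose summed level was not raised at 2 h. The summed list of other heat-shock response genes was also higher in these cells, at 5401 against 1927 CPM. Among its genes Hspb1 was at 95.5 against 4.04 CPM, also a low count in these shallow cells. Hspb1 was higher too in such T-like (32.4 against 0.39 CPM) and nonclassical monocyte-like cells (45.8 against 0 CPM) at 2 h. The same held for B-like cells at 3 d (61.5 against 0.49 CPM). It was at 0 in such NK-like cells at 2 h and in such nonclassical monocyte-like and T-like cells at 3 d. Bag3 of the B-like cells at 2 h was at 0 against 4.04 CPM, too low in these shallow cells to give a direction. Of the other folding systems 3 lists were nearly level: endoplasmic reticulum chaperones were at 1008 against 950 CPM, the chaperonin (the ring that folds actin and tubulin) at 573 against 638 CPM and cochaperones at 1454 against 1349 CPM. Other mitochondrial chaperones and proteases were lower, at 127 against 285 CPM. Immediate-early genes, the first genes switched on by many stimuli, were at 20915 against 5569 CPM. The median depth of these groups was 758 and 771 UMIs, the median mitochondrial share 3.95% and 4.47%, and the doublet share 1.83% and 6.56%. At 3 d the doublet share went the other way in B-like (5% of 20 against 1.88%) and T-like cells (11.1% of 9 against 4.49%). The part of depth and doublets was not tested.

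The same members were high in such cells of the other lineages. In T-like cells at 2 h Dnaja1 was at 1893 against 499 CPM and Hspa8 at 2095 against 682 CPM. Their other heat-shock response genes were at 4029 against 2050 CPM, and their other mitochondrial chaperones and proteases at 121 against 208 CPM. In nonclassical monocyte-like cells that last list was at 206 against 175 CPM at 2 h and at 107 against 192 CPM at 3 d. Among nonclassical monocyte-like cells Hsp90aa1 was at 1719 against 184 CPM at 2 h and at 5301 against 400 CPM at 3 d. At 3 d the doublet share of those nonclassical cells was 0 of 23 cells, against 5.49% of the cells with 0, and their immediate-early genes were at 19892 against 4923 CPM.

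**Figure D4:**
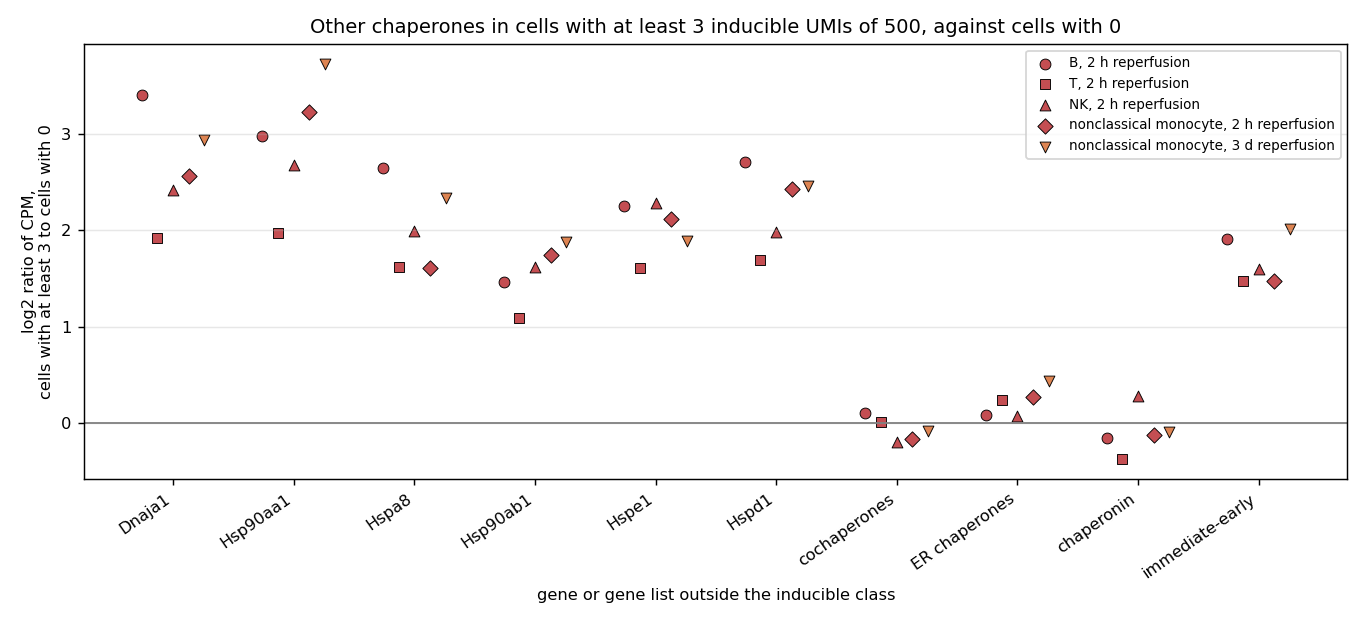
Log2 ratio of CPM between cells with at least 3 and cells with 0 inducible UMIs of 500, for chaperones and gene lists outside the inducible class, 1 point per lineage and library. Cytosolic and mitochondrial chaperones lie above 1 (Dnaja1 3364 against 318 CPM in B-like cells at 2 h), while endoplasmic reticulum (ER) chaperones lie near 0 (1008 against 950 CPM).

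The immediate-early list also moved with the libraries. B-like cells held 2932, 7030 and 2932 CPM of it in the naive, 2 h and 3 d libraries. T-like cells held 2032, 5522 and 2389 CPM, NK-like cells 2316, 4905 and 2587 CPM, and neutrophil-like cells 9285, 21248 and 10598 CPM. Between 2 h and naive 8 of 12 of its genes were at least 2-fold higher in B-like and T-like cells. In NK-like cells 9 of 12 were, and in neutrophil-like cells 6 of 12. Of all genes 8.55% were in B-like, 7.22% in T-like, 8.39% in NK-like and 9.29% in neutrophil-like cells. In B-like cells Ier3 and Fos led, at 89.9 against 8.53 CPM and 767 against 91.3 CPM. Of these, Ier3 was under 10 CPM in the naive lung and passed the level filter only through its 2 h level. Nonclassical monocyte-like cells held 11002 CPM of the list at 2 h and 5723 CPM at 3 d, while the inducible chaperones were nearly equal. Such genes and the chaperones are both known to respond to tissue dissociation, and the part of cell isolation in these differences was not tested.

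Summed neutrophil markers were also higher in the grafts in every lymphoid lineage: 239, 2109 and 1238 CPM in B-like, 711, 1642 and 1428 CPM in T-like and 374, 1751 and 4130 CPM in NK-like cells. Their part in the result was not tested.

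Other genes of the heat-shock response were seldom past 2-fold upward when all cells of a lineage were summed. Of the 14 other response genes, 10 passed the level filter in B-like cells. Only 1 of the 10 was at least 2-fold higher at 2 h than in the naive lung, near the 8.55% of all genes. It was Dnajb4, a J-domain protein, at 30.4 against 15.1 CPM (1.01, 0.41 to 1.61). The list's median log2 ratio there was -0.19, against -0.37 over all genes. In nonclassical monocyte-like cells 0 of 11 were higher and 4 were lower at 2 h than at 3 d, where 19.4% of all genes were lower. Of the heat-shock factors Hsf1 and Hsf2 and the binding protein Hsbp1, 1 of 3 was at least 2-fold higher at 2 h in B-like and T-like cells. The gene was Hsf2, at 27.1 against 6.83 CPM in B-like cells (1.99, 1.23 to 2.78). In T-like cells Hsf2 was at 31.1 against 6.17 CPM (2.33, 1.76 to 2.93). Hsf2 was under 10 CPM in both naive lineages and passed the level filter only through its 2 h level. Of all genes 8.55% were higher in B-like and 7.22% in T-like cells. Hsf1, the main stress-activated factor, which is controlled mostly after translation, was at 17.8 against 30.7 CPM in B-like cells.

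Ptges3, the p23 cochaperone of Hsp90, was the only 1 of the 9 cochaperones at least 2-fold higher at 2 h than in the naive lung in the 3 lymphoid lineages and in neutrophil-like cells. Ptges3 was at 574 CPM at 2 h against 128 CPM in B-like cells (2.17, 2.00 to 2.34), 463 against 120 CPM in T-like cells (1.94, 1.81 to 2.08) and 159 against 60.5 CPM in neutrophil-like cells (1.39, 1.12 to 1.67). In nonclassical monocyte-like cells it was at 399 CPM at 2 h and 121 CPM at 3 d (1.73, 1.52 to 1.93), so that Ptges3, unlike Hspa1a and Hspa1b, was higher at 2 h there too. The endoplasmic reticulum chaperones had 0 of 9 genes higher in B-like cells and 0 of 9 in T-like cells, and Calr was lower (130 against 245 CPM and 112 against 163 CPM). None of the 8 chaperonin genes was at least 2-fold higher in B-like, T-like or NK-like cells. Of 6 other mitochondrial chaperones and proteases Grpel1 was higher in B-like cells (112 against 37.3 CPM). In B-like cells 1 gene of each of these 2 lists was at least 2-fold lower, where 30.2% of all genes were. Of all genes, 8.55% were at least 2-fold higher in B-like, 7.22% in T-like, 8.39% in NK-like and 9.29% in neutrophil-like cells. Counts of 0 or 1 higher in lists of this size are thus near the share of all genes.

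Endothelial-like cells, which a leukocyte sort should not hold, were the only 1 of 7 lineages compared whose inducible level was higher at 3 d than at 2 h. The inducible class was at 336 CPM in 88 naive cells, 647 CPM in 34 cells at 2 h and 1277 CPM in 131 cells at 3 d. The log2 ratio of 3 d to naive was 1.92 (1.61 to 2.26), that of 2 h to naive 0.94 (0.35 to 1.51) and that of 2 h to 3 d -0.98 (-1.51 to -0.49). Hspa1a was at 143, 89.9 and 631 CPM, with 5 UMIs at 2 h, and Hspa1b at 80.5, 216 and 380 CPM. Of 9 members that passed the filter 3 were past 2-fold between 2 h and naive (Hspa1b, Dnajb1 and Dnaja1), against 11.2% of all genes, and 4 of 10 between 3 d and naive (Hspa1a, Hspa1b, Dnajb1 and Hsph1), against 10.6%. All 8 endothelial markers were detected in all 3 libraries and summed to 5847, 5700 and 6689 CPM. The 5 epithelial markers were also detected and summed to more, at 7657, 28016 and 18459 CPM. Sftpc, an epithelial marker, was the top gene of the cluster. The name of these cells is thus uncertain, and the part of the epithelial markers in the result was not tested.

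Across 23 points, each a lineage of at least 30 cells in 1 library, the genes whose log2(CPM + 10) ran most like that of the summed inducible class were Arglu1 (Pearson r 0.83), Supt16 (0.80), Mrpl53 (0.80), mt-Nd4l (0.80) and Tmf1 (0.80), among 6433 genes. Next came Tra2b, Snu13, mt-Atp8, 0610010K14Rik and Srsf2, with r from 0.79 to 0.78. The 6 members outside the class had r from 0.32 (Dnaja1) to 0.61 (Hsp90ab1). The 23 points share 3 libraries and their depths, so this is a description only.

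**Figure D5:**
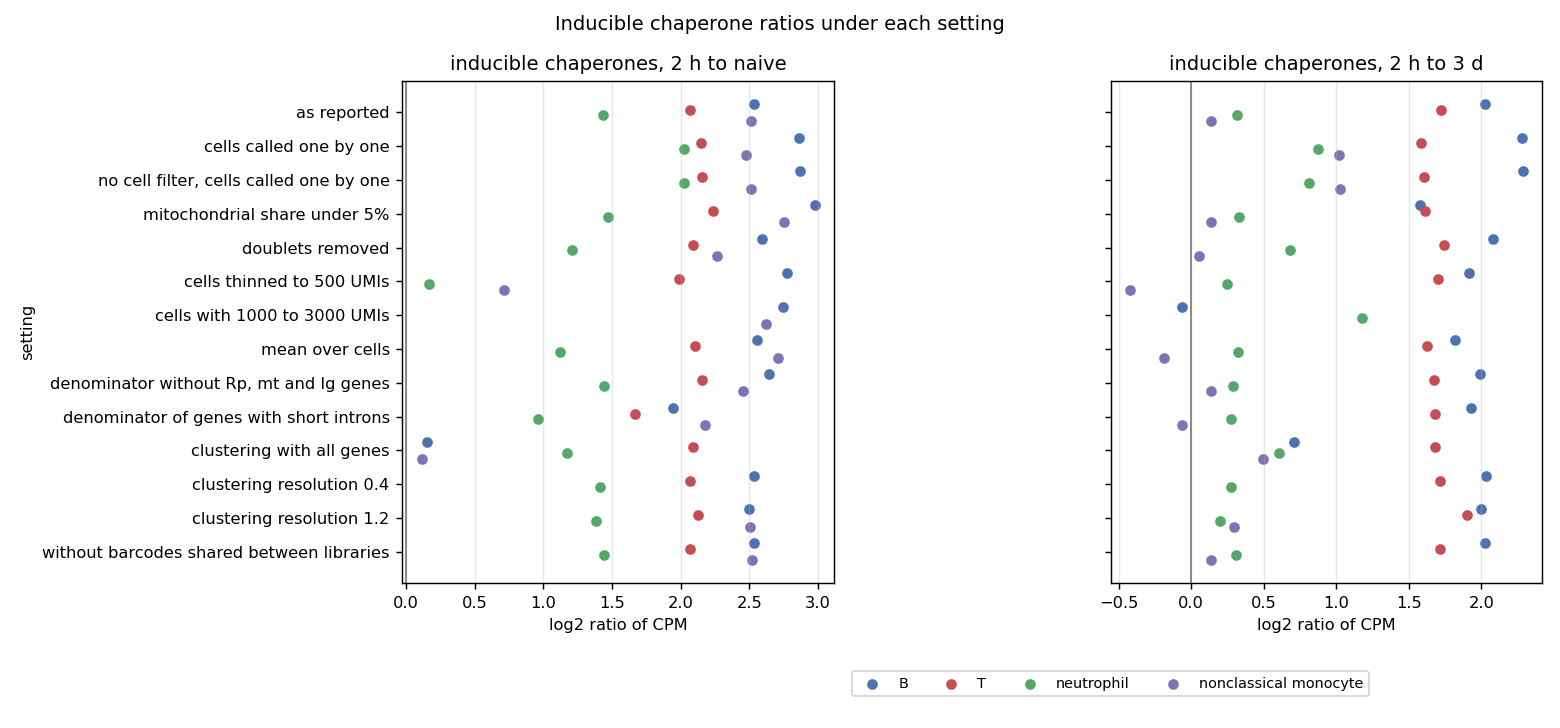
Log2 ratio of the inducible class under each alternative setting, for 4 lineages (colours) and 2 pairs of libraries (panels), with the value as reported in the top line. B-like and T-like ratios of 2 h to naive stay above 1 under every setting that gave a value but 1, the clustering with all genes. There the B-like ratio is 0.15. No value was had for T-like cells of 1000 to 3000 UMIs.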

How the data were processed

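The deposited files held UMI counts per gene and cell that the authors made with Cell Ranger against mm10 (per the file headers 7.1.0 for naive cells and 6.0.0 for both grafts, and version 6 with Seurat 4 in the submitters' processing notes). The sources give both a 5′ and a 3′ kit and do not say if intronic reads entered the counts. Gene expression rows of 3 libraries were used, and the 277 antibody features of each graft library were not.

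Filters kept cells of 200 to 6000 genes with less than 10% of UMIs on mitochondrial genes and fewer than 25000 UMIs. Counts were normalized with sctransform 0.4.2 and clustered with Seurat 5.3.0 in R 4.3.3 (30 components, resolution 0.8). Clusters were named from fixed marker lists, and 165, 471 and 516 kept cells of the naive, 2 h and 3 d libraries stayed outside the named lineages. A clustering with all genes had been planned as the main one. It put 395 cells in a cluster led by Hspa1a and Hspa1b and 355 in a T cell cluster led by the same genes, so a clustering without 22 genes (the members and the immediate-early list), first meant as a check, was used instead after the data were seen. Scrublet, run through scanpy 1.11.5, called 1.65%, 3.92% and 3.33% of kept cells doublets, which were kept in the values reported.

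UMIs were summed per lineage and library and divided by the lineage's UMIs (CPM). Ratios have exact conditional 95% intervals, CPM exact Poisson and shares Clopper-Pearson intervals (scipy 1.17.1, Python 3.11.15), all for counting error only. A gene counted as past 2-fold at a log2 ratio of at least 1, among genes averaging at least 10 CPM and holding at least 20 UMIs, with a count of 0 set to 3. With 1 library per condition no test was made and no p-value was computed. The ratio code was tested on simulated counts. Identities were computed with biopython 1.88, promoter windows came from RefSeq on GRCm38.p6 (12 windows for 7 of the 10 members), and gene positions from a GRCm38 annotation.

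The members, classes and lists were chosen with earlier results of these data known. Named were the 10 members, the 10 genes most like the inducible class and, from each list, only genes with the 2 largest ratios in either direction, of which the text gives some and 1 is not reported here. Outside that rule Bag3 and Hspb1 were named for the cells with at least 3 inducible UMIs. The T cell and neutrophil clusters were singled out after their values were seen.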

Additional observations from a re-analysis of the deposited data

Results flagged for a closer look

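The inducible class of endothelial-like cells was lower at 2 h than at 3 d, with a log2 ratio of -0.98, while it was higher at 2 h in the 6 other lineages with at least 30 cells in both libraries. The 2 h value rested on 36 inducible UMIs in 34 cells. Epithelial markers summed to more than endothelial markers in these cells, so their name is uncertain. With 1 library per condition the difference between lineages was not tested.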

How the results depend on the processing

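No paired analysis was possible because each condition had 1 library, and no replicate could be left out. Over all alternatives, 1333 of 1454 values of single members and classes kept their direction, as did 431 of 442 past 2-fold. The inducible class was left out of these counts in all lineages but NK-like cells. Log2 ratios of the inducible class that moved by more than their counting interval are given here with the cause not tested. In B-like cells the 2 h to naive ratio (2.53) was 2.86 with cells called one by one, 2.87 so without a cell filter, 2.98 under 5% mitochondrial UMIs, 2.78 thinned to 500 UMIs, 2.74 in cells of 1000 to 3000 UMIs, 1.95 over genes with under 10 kb of introns and 0.15 with all genes in the clustering, which removes the chaperone-rich cells. The B-like 2 h to 3 d ratio (2.03) was 2.28, 2.29, 1.58, 1.91, -0.063, 1.93 and 0.71 under the same settings and 1.82 as a mean over cells. In T-like cells 2 h to naive (2.07) was 2.24 under 5% mitochondrial UMIs and 1.67 over short-intron genes, and 2 h to 3 d (1.72) was 1.58 called one by one, 1.60 so without a filter, 1.61 under 5%, 1.62 as a mean and 1.90 at resolution 1.2. In neutrophil-like cells 2 h to naive (1.44) was 2.03, 2.02 without a filter, 0.16 thinned and 0.96 over short-intron genes, and 2 h to 3 d (0.31) was 0.88, 0.81, 0.68 without doublets, 1.18 in cells of 1000 to 3000 UMIs and 0.60 with all genes clustered. In nonclassical monocyte-like cells 2 h to 3 d (0.14) was 1.02, 1.03 without a filter, -0.42 thinned, -0.19 as a mean, -0.063 over short-intron genes, 0.495 with all genes clustered and 0.29 at resolution 1.2. The same lineage's 2 h to naive ratio (2.51, from 4 naive cells with 2 UMIs) was 0.12 with all genes clustered and 1.76 with 64 naive cells of an unnamed cluster added, an alternative chosen after seeing the data, as was leaving out shared barcodes, which moved no inducible ratio past its interval.

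The inducible share of member UMIs at 2 h was 26.2%, 25.5%, 21.0% and 8.07% in B-like cells (24.4%) under 5% mitochondrial UMIs, thinned, in cells of 1000 to 3000 UMIs and with all genes clustered. In T-like cells (17.9%) it was 18.7% called one by one with or without a filter, 19.2% under 5%, 18.9% thinned and 18.8% as a mean, and in nonclassical monocyte-like cells (27.0%) 37.3% called one by one with or without a filter, 24.6% thinned and 9.01% with all genes clustered. Of the values of single members past 2-fold, these changed sign. In B-like cells Hspa1a and Hspa1b, 2 h to naive, were -0.48 and -1.36 with all genes clustered, and 2 h to 3 d -0.87 and -0.23 in cells of 1000 to 3000 UMIs. In neutrophil-like cells, 2 h to naive, thinning gave -1.07 (-3.35 to 2.18) for Hspa1a, -2.66 (-5.78 to 0.92) for Hsph1 and -0.13 (-1.83 to 2.24) for Hspe1. These values rested on 2, 2 and 3 naive UMIs of 1 draw. The mean over cells gave -0.41 for Hsph1, from 3 naive UMIs. Hspa1a of these cells, 2 h to 3 d, was 0.00342 called one by one, 0.078 without doublets and 0.49 in cells of 1000 to 3000 UMIs.

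With a mean of at least 50 CPM in place of 10 CPM, genes at least 2-fold higher at 2 h than naive were 306 in place of 676 in B-like, 258 in place of 555 in T-like, 263 in place of 677 in NK-like and 201 in place of 507 in neutrophil-like cells. Against 3 d they were 236 for 490, 245 for 472, 200 for 502 and 173 for 372, and 273 for 572 in nonclassical monocyte-like cells. In 100 cases an alternative gave no value because fewer than 30 cells remained, among them nonclassical monocytes at resolution 0.4 (1 cell at 2 h) and T-like, NK-like and naive neutrophil-like cells of 1000 to 3000 UMIs. The shallow 2 h cells, neutrophils with few inducible UMIs and the 4 naive nonclassical monocytes limit the precision, as does the single library per condition.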

Other observations

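A naive cluster of 139 monocytes that met no name, because markers of both monocyte types led it, held 446 CPM of the inducible class (415 to 478). Its 64 cells called nonclassical one by one held 272 CPM (235 to 314) and its 54 cells called classical 660 CPM (606 to 717), above the 160 CPM from 2 UMIs in the 4 naive nonclassical monocyte-like cells. Among 6 naive C1q macrophage-like cells, 110 of 375 member UMIs (29.3%) were inducible, 2079 CPM (1709 to 2506), and their immediate-early genes were at 33677 CPM. At 3 d the 191 cells of that name held 99.9 CPM and 7192 CPM. Alveolar macrophage-like cells, named only in the naive library (102 cells), held 162 CPM of the inducible class (145 to 181).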
